A study of Mus musculus with 13 samples.

Results

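The EGF receptor (ErbB) genes and genes for their ligands were followed in mouse submandibular gland from midgestation to adulthood. They were chosen by name as the 4 receptors Egfr, Erbb2, Erbb3 and Erbb4 and the 6 ligands Hbegf, Areg, Tgfa, Btc, Ereg and Nrg1, which makes 10 of the 23364 genes measured. All glands came from C57BL/6 mice, with no transgene and no treatment in any group. There were 7 embryonic samples, of which 3 were of embryonic stage E14.5, 2 of E16.5 and 2 of E18.5 (days of gestation). The neonatal stage held 2 samples from postnatal day 5 (P5), and the adult stage held 2 samples from males of 4 weeks (4wk) and 2 from males of 12 weeks (12wk). Each embryonic sample pooled the glands of several animals, and the sex of the embryonic and neonatal animals was not ascertained. The whole gland was used, so that fewer cells of a type and less RNA per cell cannot be told apart in any value below.

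ErbB receptors are tyrosine kinases that pair up when a ligand binds. EGFR binds TGFA, AREG, HBEGF, BTC, EREG and EGF, whereas ERBB3 and ERBB4 bind the neuregulins, and ERBB4 also binds HBEGF, BTC and EREG. ERBB2 has no known soluble ligand and acts as the preferred partner of the other receptors, while ERBB3 has little kinase activity of its own and signals through its partners. The ligands are made as membrane proteins, and metalloproteases of the ADAM family release them. In the embryonic salivary gland, ErbB signals are known to promote epithelial branching. The granular ducts of the adult male mouse gland are known for storing EGF itself in large amounts.

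The ligands share the EGF-like domain, the stretch with which they bind their receptors and which is held in shape by cysteine pairs. The coding bases of this domain are shown for 3 ligands of EGFR and for the neuregulin, so that the spacing of their cysteines can be compared. They were read from the GENCODE transcripts of build mm9 (NCBIM37), on the sense strand and 5′ to 3′, with the 6 cysteine codons in capitals.
Tgfa: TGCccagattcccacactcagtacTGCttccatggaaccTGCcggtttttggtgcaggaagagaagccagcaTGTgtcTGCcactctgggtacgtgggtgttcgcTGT
Btc: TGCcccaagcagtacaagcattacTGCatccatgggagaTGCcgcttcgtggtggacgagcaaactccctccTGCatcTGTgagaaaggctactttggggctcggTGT
Areg: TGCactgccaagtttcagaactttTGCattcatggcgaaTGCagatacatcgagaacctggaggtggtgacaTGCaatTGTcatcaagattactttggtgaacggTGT
Nrg1: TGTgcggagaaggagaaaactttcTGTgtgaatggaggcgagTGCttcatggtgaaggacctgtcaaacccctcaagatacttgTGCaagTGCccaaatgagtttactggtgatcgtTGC
The search asked for 6 cysteine codons (TGT or TGC) with 7, then 4 or 5, then 10 to 13, then 1, then 8 codons between them in the coding frame, and 51 of 22594 coding genes (0.226%) held such a run. Tgfa, Btc, Areg and also Ereg had 36 codons with 4 codons between the second and the third cysteine and 10 between the third and the fourth. Nrg1 had 40 codons, with 5 and 13 codons in those places. Each domain lay across 2 exons, at chr6:86213194-86219954 on the plus strand for Tgfa, chr5:91791447-91795223 on the minus strand for Btc, chr5:91572640-91573390 on the plus strand for Areg and chr8:32948170-32959870 on the minus strand for Nrg1. Ereg, Areg and Btc lie together with Epgn, a further EGFR ligand, within 375450 bases of chromosome 5.

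Expression is given as FPKM, the number of reads per kilobase of transcript scaled to the depth of the sample, so that genes are compared per length. Between 5817293 (4wk replicate 1) and 48314162 (P5 replicate 1) reads fell on genes. The 10 highest genes took 5.99% to 7.18% of all FPKM at E14.5, 29.2% to 31.1% at P5 and 48.1% to 61.1% in the adult samples. FPKM are scaled to all reads of a sample, so that other genes are left a smaller part when a few take more, and the median gene was lower by 0.75 on the log2 scale in adult than in embryonic samples. Each adult comparison is therefore given on the deposited FPKM and, as "rescaled", after division by median-of-ratios factors, which were 1.148 to 1.38 in embryonic, 1.031 to 1.089 in neonatal and 0.617 to 0.714 in adult samples. The labelled tissue was borne out by sums of its markers: 5 acinar genes summed to 38.4 to 58.8 FPKM at E14.5 and to between 50200 and 81600 FPKM in the adult samples, and 4 granular duct genes went from 17 to 18.1 FPKM at E14.5 to at least 24500 FPKM in each adult sample. The acinar gene Smgc went the other way. It differed by -3.43 ± 2.62 (SE) on the log2 scale from embryonic to adult samples, and by -11.06 ± 3.62 from neonatal to adult samples (rescaled -2.69 and -10.5).

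**Figure D1:**
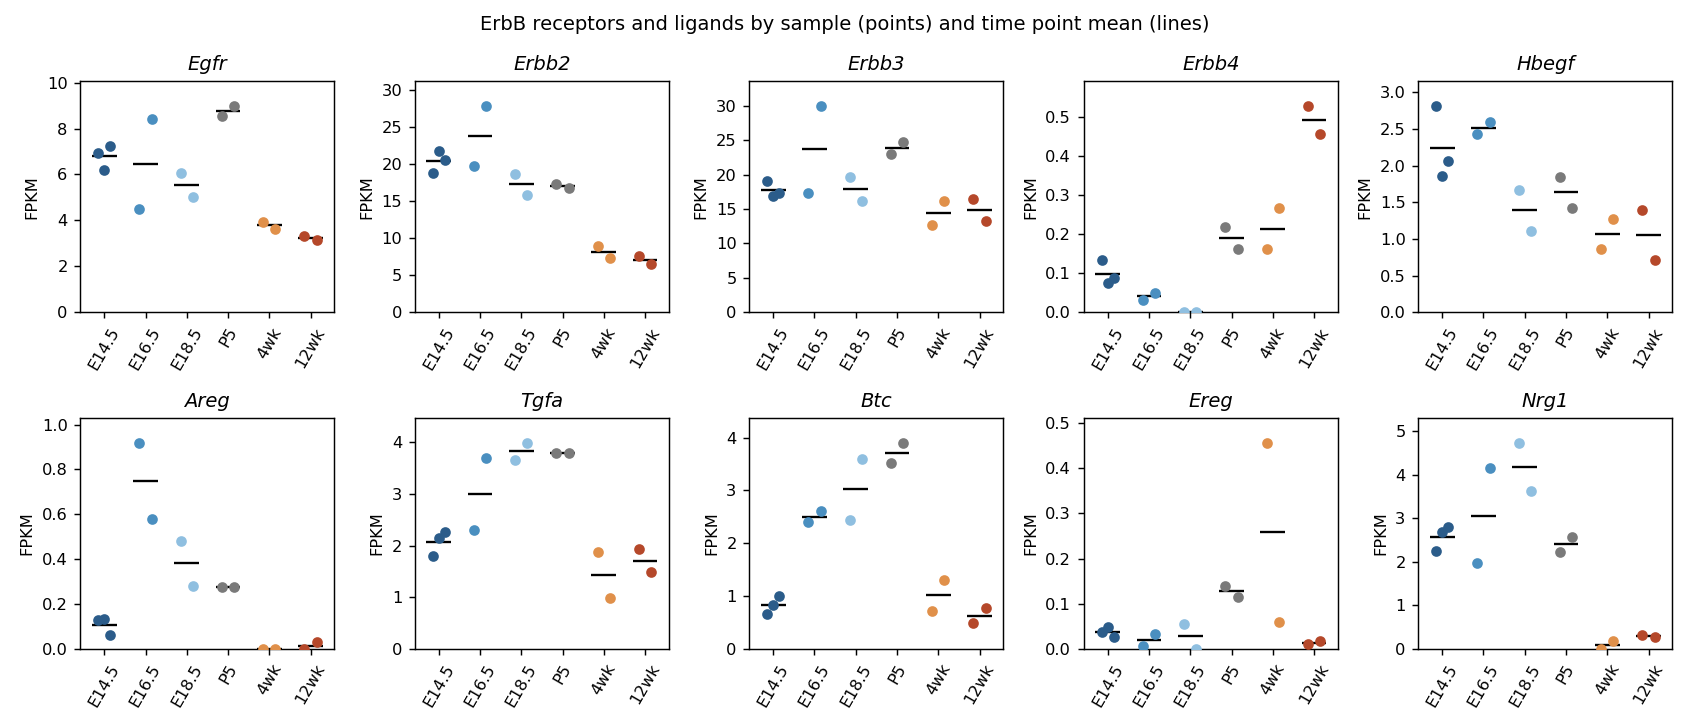
FPKM (vertical axes, each from 0) of the 4 receptors and 6 ligands in every sample (points) at the 6 time points, with the mean of each time point as a line. Adult samples sit lowest for Egfr, Erbb2, Areg and Nrg1 and highest for Erbb4 at 12wk (0.454 and 0.527 FPKM).

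Erbb2 and Erbb3 were the main receptor transcripts of the gland at every time point, Egfr stood below them and Erbb4 was barely detected. Erbb2 (chr11:98273784-98299030) ranged over 15.9, 19.7 and 27.9 FPKM (lowest, median and highest) in the 7 embryonic samples. It was 17.4 and 16.8 FPKM in the P5 samples, 9.01 and 7.29 FPKM at 4wk, and 7.57 and 6.53 FPKM at 12wk. Every adult sample was below every embryonic and neonatal one, and the values of E16.5 and E14.5, of E18.5 and P5 and of 4wk and 12wk overlapped in the order of levels.

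Erbb3 (chr10:128004579-128026708) ranged over 16.1, 17.3 and 30.0 FPKM in the embryonic samples. At P5 it measured 23.0 and 24.7 FPKM, at 4wk 12.7 and 16.1 FPKM, and at 12wk 16.4 and 13.3 FPKM. The adult and embryonic values overlapped, and the single high embryonic value belonged to E16.5 replicate 2. Its partner E16.5 replicate 1 had 17.3 FPKM, and replicate 2 also had the higher value of the pair for every other member except Areg.

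Egfr (chr11:16652206-16818161) ranged over 4.51, 6.20 and 8.42 FPKM in the embryo. Its highest values were those of P5 with 8.55 and 8.99 FPKM, and it then stood at 3.95 and 3.61 FPKM at 4wk and 3.33 and 3.13 FPKM at 12wk. The 3 stages did not overlap for Egfr, whereas E16.5 overlapped with both other embryonic time points.

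Erbb4 (chr1:68078760-69154633) never reached 1 FPKM. It had 5 to 11 reads in each E14.5 and E16.5 sample and 0 reads in both E18.5 samples, which allows up to 0.0406 and 0.0217 FPKM. At P5 it had 45 and 29 reads (0.219 and 0.162 FPKM), at 4wk 4 and 9 reads (0.162 and 0.266 FPKM) and at 12wk 49 and 55 reads (0.527 and 0.454 FPKM). Its lowest postnatal value lay above its highest embryonic value of 0.134 FPKM, and at these counts the P5 and 4wk values overlapped.

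The comparisons between stages ask which genes differ between the embryonic, neonatal and adult gland, and they share samples with each other. Samples of different ages within a stage are taken as replicates, as in the study, so that differences between ages enter each SE and p. A gene was tested with limma on log2(FPKM + 1) if it reached 1 FPKM in at least 1 sample, and called if the log2 difference was at least 1 with a Benjamini-Hochberg adjusted p under 0.1 over the 14650 genes tested. Because 1 FPKM is added, log2 differences of low genes are understated. Of the 10 genes, 7 were tested, and Erbb4, Areg and Ereg did not reach the limit.

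From embryo to neonatal, 0 of the 7 genes were called by limma, where 4.14% of all tested genes were called higher and 8.14% lower (rescaled 0 of 7, against 5.55% and 3.9%). The smallest p of the 7 were those of Egfr, higher by 0.43 ± 0.19 (SE, log2), and Btc, higher by 0.78 ± 0.35. Their limma p were 0.0402 and 0.0411 before adjustment and 0.103 and 0.104 after it. On the rescaled values Egfr was higher by 0.66 ± 0.16 and Btc by 0.91 ± 0.35 (limma adjusted p 0.0174 and 0.0842). Erbb3 was higher by 0.56 there (limma adjusted p 0.0531), and all 3 missed only the fold limit. The median difference of the 7 genes was 0.31 against -0.25 over all genes tested.

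From neonatal to adult, 4 of the 7 genes were called lower and 0 higher, against 20.8% and 2.31% of all tested genes. Rescaled, 2 were called lower and 0 higher, against 8.53% and 6.05%. Among receptors, Egfr differed by -1.12 ± 0.21 and Erbb2 by -1.08 ± 0.19 (limma adjusted p 0.00106 and 0.000824). After rescaling these became -0.56 and -0.46 (adjusted p 0.0309 and 0.0393), which is short of the fold limit, so that the calls of both receptors depend on the scale. Erbb3 differed by -0.67 ± 0.21, under the fold limit, and by -0.03 after rescaling. Among ligands, Btc fell by 1.39 ± 0.37 (adjusted p 0.00899, limma) and Nrg1 by 1.52 ± 0.26 (adjusted p 0.000592, limma), and both passed on the rescaled values as well, with -1.03 (adjusted p 0.061) and -1.35 (adjusted p 0.00246). Tgfa and Hbegf differed by -0.92 ± 0.26 and -0.37 ± 0.24 and were not called. After rescaling they differed by -0.47 and 0.02 (limma adjusted p 0.203 and 0.963), so that the difference of Tgfa depends on the scale too. With 0.1 FPKM added in place of 1 FPKM to the deposited values, Tgfa was called (-1.27 ± 0.37, adjusted p 0.0126, limma). This made 5 of the 7 genes lower.

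From embryo to adult, 2 of the 7 genes were called lower and 0 higher, against 38% and 5.58% of all tested genes. On the rescaled values it was 1 lower and 0 higher, against 14.7% and 13.8%. The share of the 7 genes called lower was thus no larger than that of all genes on either scale. Erbb2 differed by -1.31 ± 0.14 (adjusted p 1.43e-06, limma), but rescaled by -0.44 ± 0.11 (adjusted p 0.00344), under the fold limit. Nrg1 fell by 1.78 ± 0.19 (adjusted p 1.28e-06, limma) and rescaled by 1.41 ± 0.19 (adjusted p 2.76e-05). Erbb3 turned from -0.37 ± 0.16 on the deposited values to 0.53 ± 0.15 on the rescaled ones (adjusted p 0.0438 and 0.00615) and was called on neither. The other 4 genes had differences of -0.69 to -0.56 on the deposited and of -0.12 to 0.10 on the rescaled values.

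**Figure D2:**
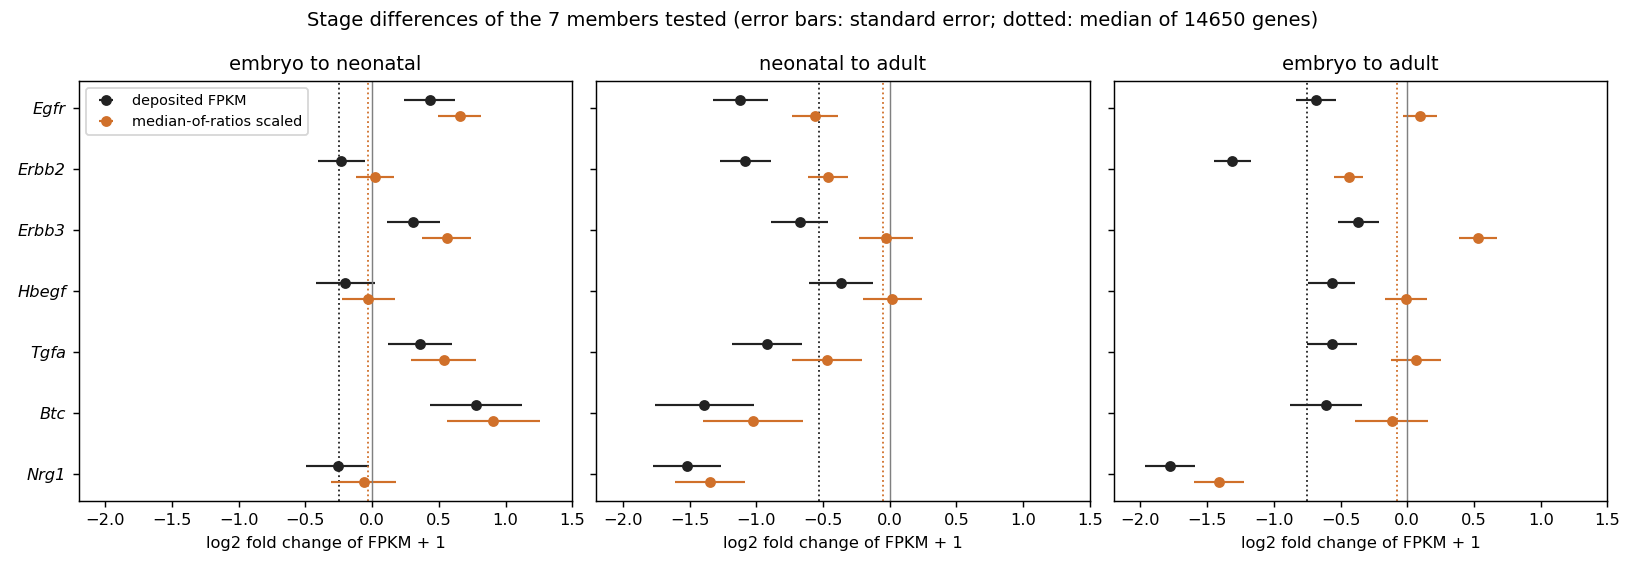
Log2 difference of FPKM + 1 (horizontal axes) of the 7 tested genes between stages, from deposited (black) and rescaled (orange) values, with standard errors as bars and the median of the 14650 tested genes as dotted lines. Nrg1 lies left of the median on both scales in the comparisons with the adult gland (embryo to adult -1.78 and -1.41).

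The make-up of the receptor transcripts within a sample does not depend on how samples are scaled. Erbb2 made up 42% to 48.4% of the summed FPKM of the 4 receptors in the embryonic samples, 33.1% to 35.4% at P5 and 26.7% to 34.8% in the adult samples. Erbb3 made up 37.6% to 45.2%, then 46.7% to 48.8% and then 49.3% to 59.1%. The share of Egfr was 10.8% to 16% in the embryo, 17.4% to 17.7% at P5 and 12% to 15.3% in the adult. Erbb4 stayed at or below 0.298% in the embryo and reached 1.89% and 1.94% at 12wk.

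The ratio of Erbb3 to Erbb2 was 0.777 to 1.07 in the 7 embryonic samples, 1.32 to 1.47 at P5 and 1.41 to 2.21 in the 4 adult samples. The adult ratio was higher by 1.03 on the log2 scale (exact two-sided permutation test, p = 0.003, the smallest that 330 labellings allow, and 0.015 after Benjamini-Hochberg adjustment over 10 tests). Egfr to Erbb2 likewise went from 0.229 to 0.368 in the embryo to 0.439 to 0.495 in the adult, a log2 difference of 0.59 (exact permutation p = 0.003, adjusted 0.015). At P5 both ratios lay above the embryonic range, with mean log2 ratios 0.57 and 0.74 above the embryonic means, but with 2 samples the test cannot go below p = 0.028, and the adjusted exact permutation p was 0.056. Erbb3 to Egfr differed by 0.44 between embryo and adult, with an adjusted exact permutation p of 0.056. These ratios were chosen with the levels known, and the permutation tests take samples of different ages within a stage as replicates. Beside them, 6 epithelial markers summed to 327 to 594 FPKM at E14.5, to 1260 to 1670 FPKM from E16.5 to P5 and to 700 to 865 FPKM in the adult, while 6 mesenchymal markers went from 2430 to 2730 FPKM at E14.5 to 73.7 to 118 FPKM at 12wk. The part of cell composition in the ratios was not tested.

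**Figure D3:**
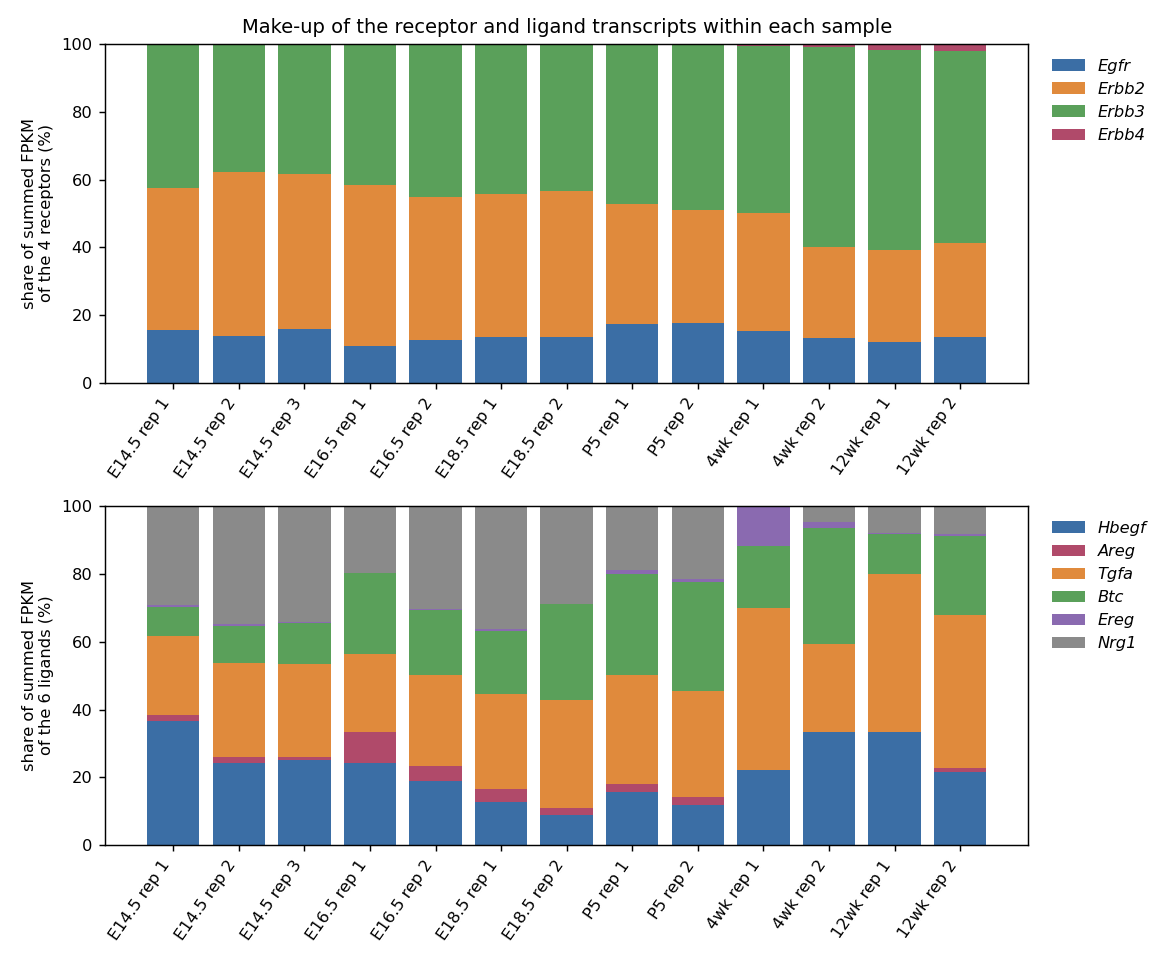
Share (%) of each gene in the summed FPKM of the 4 receptors (upper panel) and of the 6 ligands (lower panel), one stacked bar per sample in the order of age. Erbb2 goes from 42% to 48.4% in the embryo to 26.7% to 34.8% in the adult, and Nrg1 from 19.6% to 36.3% to at most 8.17%.

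Among the ligands, Tgfa, Hbegf, Btc and Nrg1 were the ones measured above 1 FPKM. Tgfa (chr6:86145420-86225151), a ligand of EGFR, ranged over 1.79, 2.30 and 3.99 FPKM in the embryo. It had 3.80 FPKM in both P5 samples, 1.87 and 0.981 FPKM at 4wk, and 1.93 and 1.48 FPKM at 12wk. The levels of E18.5 and P5 could not be told from each other, and those of E14.5 overlapped with those of the adult.

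Btc, betacellulin (chr5:91786287-91831939), measured 0.667, 0.837 and 1.00 FPKM in the 3 samples of E14.5. The values were 2.40 and 2.61 FPKM at E16.5, 2.45 and 3.60 FPKM at E18.5, and 3.53 and 3.91 FPKM at P5. In the adult they came back to 0.717 and 1.31 FPKM at 4wk and 0.494 and 0.771 FPKM at 12wk, overlapping with E14.5. From E16.5 on, neighbouring values overlapped up to P5, so that E14.5 and the adult gland stand apart as the low groups.

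Hbegf, heparin-binding EGF-like growth factor, ranged over 1.103, 2.06 and 2.82 FPKM in the embryo. It measured 1.85 and 1.43 FPKM at P5, 0.869 and 1.27 FPKM at 4wk, and 1.39 and 0.711 FPKM at 12wk. Its adult values overlapped with those of E18.5, and the 4wk samples held 12 and 24 reads of the gene.

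Nrg1, neuregulin 1 (chr8:32928500-33119581), had the largest difference between embryo and adult among the 4 ligands tested, on either scale. It ranged over 1.97, 2.81 and 4.74 FPKM in the 7 embryonic samples and had 2.23 and 2.58 FPKM at P5. At 4wk it had 0 and 3 reads (0 and 0.179 FPKM), and at 12wk 15 and 16 reads (0.327 and 0.268 FPKM). The 4 adult samples lay below every other sample, and the 0 reads of 4wk replicate 1 allow up to 0.245 FPKM at its depth. With 0.1 FPKM in place of 1 FPKM added to each value, the log2 difference from embryo to adult was -3.61 ± 0.38 (limma, adjusted p 1.46e-06). Without both 4wk samples the number of genes called lower was still 4 of 7 from neonatal to adult, against 21.6% of all tested genes. From embryo to adult it was still 2 of 7, against 37.8% of all tested genes.

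The adult fall of Nrg1 went along with lower markers of several cell types. The 5 neuronal markers summed to 79.1 to 131 FPKM at E14.5, 30 to 62.7 FPKM at P5 and 3.33 to 5.44 FPKM in the adult samples, and 5 of 5 were called lower from embryo to adult (rescaled 4 of 5). Of the mesenchymal markers, 6 of 6 were called lower on either scale, and of 4 endothelial markers 4 (rescaled 2). The 5 skeletal muscle markers were all called lower on either scale as well, but they already summed to only 1.37 to 5.85 FPKM at P5. From neonatal to adult, 0 of these 5 were called on either scale, where 20.8% of all genes were called lower (rescaled 8.53%). Over all tested genes, 38% were called lower from embryo to adult (rescaled 14.7%). The 5 Schwann cell markers summed to 10.6 to 20.5 FPKM over all samples, and 0 of 5 were called (rescaled 1 higher). The neuronal gene Elavl4 and the Schwann cell gene Foxd3 were among those at 0 in at least 1 sample of 4wk. The part of these cells in the level of Nrg1 was not tested.

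Areg and Ereg stayed under 1 FPKM throughout. Areg, amphiregulin (chr5:91568641-91577458), had 3, 4 and 2 reads at E14.5 (0.130, 0.132 and 0.0624 FPKM). It then had 40 and 26 reads at E16.5 (0.920 and 0.581 FPKM), 10 and 11 reads at E18.5 (0.481 and 0.283 FPKM) and 16 and 14 reads at P5 (0.276 and 0.277 FPKM). In the adult gland 3 samples had 0 reads and 12wk replicate 2 had 1 read (0.0293 FPKM). At 4wk a count of 0 allows up to 0.430 and 0.314 FPKM in each sample taken alone, which is above the P5 level. Taken singly, only the 12wk samples, where 3 reads are worth 0.115 and 0.088 FPKM, separate the adult from the neonatal gland. No limit was set for the 4wk samples together.

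Ereg, epiregulin (chr5:91503643-91522675), had at most 5 reads in each embryonic sample, and its highest embryonic value was 0.0558 FPKM. It had 28 and 20 reads at P5 (0.140 and 0.115 FPKM), and in the adult 11 reads in 4wk replicate 1 (0.457 FPKM) but 2, 1 and 2 reads in the other adult samples (0.0111 to 0.0608 FPKM). The P5 values lay above every embryonic value, while the adult samples overlapped with both other stages.

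With no filter and 0.1 FPKM added, a setting chosen after the levels were seen, Erbb4, Areg and Ereg were tested among 20268 genes. With no filter but 1 FPKM added, limma called none of the 3 in any of the 6 comparisons, with differences of -0.41 to 0.65 on a scale that holds genes under 1 FPKM to small differences. The values that follow are those with 0.1 FPKM added. Erbb4 was then higher in adult than in embryonic samples by 1.53 ± 0.29 (limma, adjusted p 0.000465), where 5.87% of genes were called higher. Areg was lower by a log2 difference of -1.87 ± 0.44 (limma, adjusted p 0.00232), where 40.3% of genes were called lower. From neonatal to adult Areg differed by -1.82 ± 0.61 (limma, adjusted p 0.0331; 26.8% of genes called lower), and from E14.5 to E16.5 it was higher by 2.02 ± 0.29 (limma, adjusted p 0.00238; 4.76% called higher). Ereg differed by -1.39 ± 0.46 between 4wk and 12wk (limma, adjusted p 0.0864; 3.99% called lower), a difference that rests on the 11 reads of 4wk replicate 1. With so few reads in 1 of the groups these fitted differences depend on the amount added and bound nothing.

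Neighbouring time points were compared in a fit of all 6. From E14.5 to E16.5, 0 of the 7 genes were called by limma, against 4.17% higher and 0.983% lower over all genes. The smallest p of the 7 was that of Btc, whose difference of 0.94 ± 0.19 (limma adjusted p 0.00655) fell just under the fold limit. Without E14.5 replicate 3 the difference was 1.00 and Btc was called. On the rescaled values it was 0.83 ± 0.21 (limma adjusted p 0.0233) and Btc was not called. Beside Btc and Areg, 4 of the 5 acinar markers were called higher at E16.5 and 1 lower, and their sum went from 38.4 to 58.8 FPKM up to 1520 to 2350 FPKM. Called higher were also 4 of the 6 epithelial markers, 1 of the 5 myoepithelial and basal markers and 2 of the 5 skeletal muscle markers, where the muscle markers summed to 382 to 813 FPKM against 101 to 255 FPKM at E14.5. Their part in the difference was not tested.

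From E16.5 to E18.5 limma called 0 of the 7 genes, against 1.09% higher and 1.85% lower over all genes. Erbb2 and Hbegf were lower at an unadjusted p under 0.05, by log2 differences of -0.42 ± 0.17 and -0.57 ± 0.22, with adjusted p of 0.149 and 0.133. The muscle markers were at 2.35 to 20.3 FPKM at E18.5, and 5 of 5 were called lower. From 4wk to 12wk limma again called 0 of the 7, against 2.68% higher and 2.48% lower over all genes. An unadjusted p under 0.05 was reached by 0 of the 7. The adult differences of the 7 genes lay between -0.29 (Btc) and 0.26 (Nrg1).

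The sum of the 6 ligands was 7.69 to 13.7 FPKM in the embryonic samples, 11.8 to 12.1 FPKM at P5 and 3.28 to 4.15 FPKM in the adult samples. Within that sum Nrg1 took 19.6% to 36.3% in the embryo, 18.9% to 21.3% at P5 and at most 8.17% in the adult. Tgfa took 23% to 31.7% in the embryo and 25.8% to 47.8% in the adult, and Btc 8.68% to 12.2% at E14.5 and 29.8% to 32.3% at P5. The ratios Btc to Tgfa and Hbegf to Tgfa overlapped between embryo and adult (adjusted exact permutation p 0.7 and 0.79).

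Egf, the ligand after which the family is named, went the opposite way. It was 1.71 to 14.0 FPKM in the embryonic samples, 21.3 and 24.8 FPKM at P5, 2883 and 4322 FPKM at 4wk, and 10370 and 10970 FPKM at 12wk. Set over the sum of the 6 ligands in the same sample, Egf was 0.171 to 0.504 in the E14.5 and E16.5 samples and close to parity at E18.5 (1.06 to 1.07). The P5 samples had ratios of 1.8 and 2.04 and the adult samples 737 to 3350, and no scaling of samples alters these ratios. Of the other 4 ligands of the family, Epgn and Nrg3 stayed under 1 FPKM in every sample. Nrg2 was 2.46 to 7.31 FPKM in the embryo, 3.85 and 3.99 FPKM at P5, and 0.668 to 3.11 FPKM in the adult. It was not called in either adult comparison (embryo to adult -0.92, rescaled -0.22). Nrg4, a neuregulin that binds ERBB4, was 0.164 to 0.867 FPKM in the embryo, 1.61 and 4.12 FPKM at P5 and 0.326 to 3.12 FPKM in the adult. It was called higher both from embryo to neonatal (1.35 ± 0.37, adjusted p 0.0172, limma) and from embryo to adult (1.05 ± 0.29, adjusted p 0.00436, limma), and also when rescaled.

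The genes around the receptors were taken in lists and compared between embryo and adult, where the median of all tested genes was -0.75 (rescaled -0.08). Of all tested genes, 38% were called lower and 5.58% higher (rescaled 14.7% and 13.8%). Of 9 genes for ligand release, 6 were called lower and 0 higher (rescaled 3 and 0), with a median of -1.51 (rescaled -0.60), against 38% lower and rescaled 14.7% over all genes. The sheddase Adam12 fell by 4.05 ± 0.21 (adjusted p 2.7e-09, limma), from 13 to 26.9 FPKM in the embryo to 0.0733 to 0.605 FPKM in the adult. Adam17 and Adam10, the main sheddases of EGFR ligands, differed by -1.28 ± 0.21 and -1.51 ± 0.12, but rescaled by -0.41 and -0.60, under the fold limit.

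Of 31 adaptors and effectors, 9 were called lower and 0 higher, and after rescaling 1 lower and 2 higher. The share called lower was under the 38% (rescaled 14.7%) of all genes, and the median was -0.80 (rescaled 0.09). Nras, a RAS protein that relays receptor signals to the kinase cascade, fell by 1.99 ± 0.17 (adjusted p 2.45e-07, limma; rescaled -1.12), from 19.3 to 38.9 FPKM down to 6.07 to 7.35 FPKM.

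Of 18 receptor and pathway inhibitors, 11 were called lower and 0 higher (rescaled 4 and 1), against 38% and 5.58% of all genes (rescaled 14.7% and 13.8%). Their median was -1.13 (rescaled -0.29). Spry1, a feedback inhibitor of RAS signalling, fell by 2.90 ± 0.14 (adjusted p 1.45e-09, limma; rescaled -2.07), from 28.2 to 45.1 FPKM to 3.23 to 4.49 FPKM. Errfi1, which binds and blocks the EGFR kinase, differed by -0.23 ± 0.16 and rescaled by 0.67, and was not called.

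Of 13 tested genes that ERK signalling is known to induce, 7 were called lower and 1 higher (rescaled 4 and 2), against 38% and 5.58% of all genes (rescaled 14.7% and 13.8%), and the median was -1.03 (rescaled -0.26). Etv5, an ETS transcription factor, fell by 3.60 ± 0.42 (adjusted p 3.7e-06, limma; rescaled -2.84), from 13.9 to 76.3 FPKM to 1.32 to 3.1 FPKM. Ier3, an immediate early gene, rose by 1.33 ± 0.41 (adjusted p 0.00907, limma; rescaled 2.16), and its adult values spread from 5.65 to 44.7 FPKM around embryonic values of 3.38 to 6.79 FPKM. Mesenchymal and neuronal markers fell in the same comparison, as given for Nrg1, and their part in these lists was not tested.

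**Figure D4:**
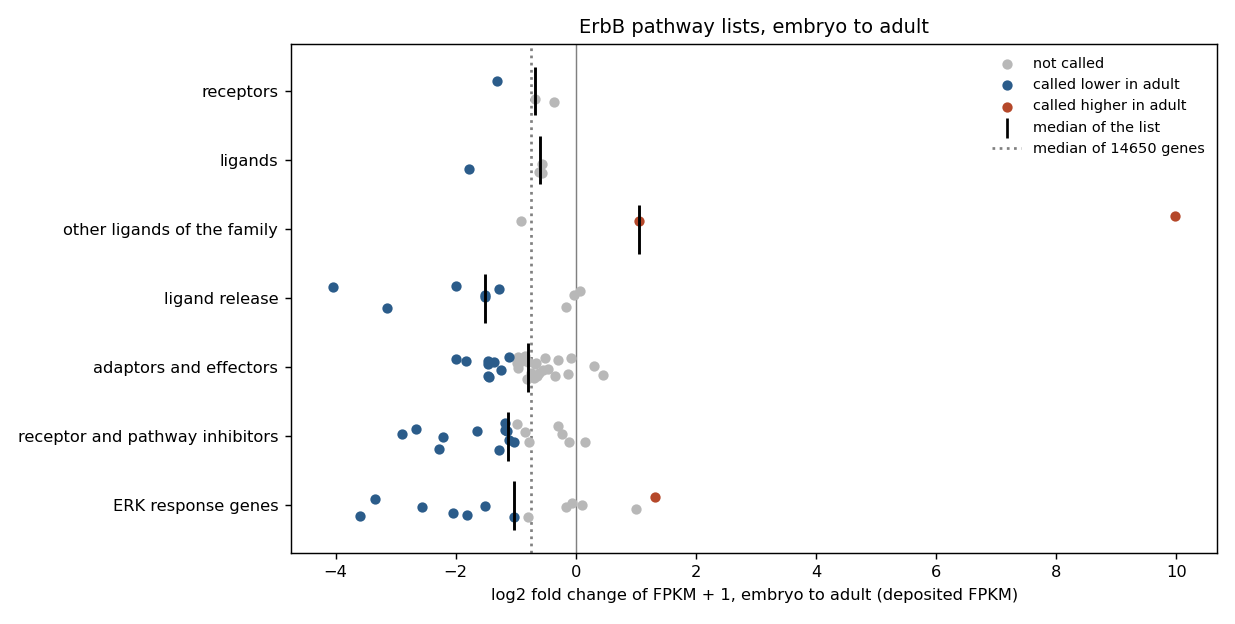
Log2 difference of deposited FPKM + 1 from embryo to adult (horizontal axis) for each tested gene of 7 lists around the ErbB receptors, coloured by call, with the list median as a black line. The medians of 6 of the 7 lists lie left of 0, as does that of all genes (-0.75, dotted), and Egf at 9.98, Nrg4 and Ier3 are the genes called higher.

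The genes whose levels followed those of a tested member most closely over the 13 samples are given as a description, by Pearson's r of log2(FPKM + 1). For Erbb2 these were Iqgap3, Mtss1l and Dgcr2 (r of 0.995, 0.993 and 0.993), and for Nrg1 they included Ofd1 and Gpc4 (0.979 and 0.976). Egfr was followed by Sestd1, Hivep1 and Med12 (0.962, 0.960 and 0.944), and Erbb3 less closely by Vps51, Itfg3 and Pomt1 (0.924, 0.921 and 0.915). Btc was followed by Adam28, Smgc and Dram1 (0.957, 0.950 and 0.947), of which Smgc encodes a secretory product of the immature gland. For Tgfa the nearest were Ptpn21, Lonrf3 and Epb4.1l5 (0.958, 0.955 and 0.954), and for Hbegf they were Prr7, Snora23 and Cnot11 (0.936, 0.921 and 0.920). The drop of the median gene towards the adult gland enters each of these values, and nothing is said here of shared function or control.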

How the data were processed

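RNA of whole submandibular glands was sequenced as 50 bp single-end reads. According to the study's methods, the authors mapped reads to mm9 with TopHat2 2.0.13 and Bowtie2 2.2.6, counted them on UCSC genes with featureCounts, leaving out reads that mapped to several places or genes, and normalized with DESeq2 1.10.1. The authors deposited FPKM per gene and sample, with no counts in the files used here. Median-of-ratios factors of these values are far from 1, so the deposited FPKM were taken as scaled to the sample total. Reads per gene were recovered from the steps of the FPKM and were used as a description, as no count test was run on them.

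Stages, the minimum of 1 FPKM in 1 sample, the log2 limit of 1 and the adjusted p under 0.1 follow the study. Tests used limma 3.58.1 in R 4.3.3 on log2(FPKM + 1) with a variance trend and Benjamini-Hochberg adjustment, which were tested on simulated data. Ratios used exact permutation tests over all labellings of the samples (numpy 2.4.6). Alternatives were the scaling, pseudocount, filter, variance trend, adjusted p, replicate block and each replicate left out. The members and gene lists were chosen with earlier results of these data known. Named genes are all members, in each pathway list the called gene with the greatest change in each direction from embryo to adult, Egf, and the 3 genes most correlated with each member, of which 1 is not reported here. Nrg2, Nrg4, Adam10, Adam17 and Errfi1 were added for their role. Replicates are biological per the study. Of 78 pairs of samples, 0 held identical values. Limits from a count of 0 use 3 reads and cover counting error only. Coordinates are those of GENCODE on mm9.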

Additional observations from a re-analysis of the deposited data

Results flagged for a closer look

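In 20 groups of members by stage with 4 to 7 samples, 3 samples stood far from the others of their group by Dixon's criterion. For normally distributed values chance gives about 1 group in 20, but these groups pool ages and hold counts near 0. Among the embryonic samples, E16.5 replicate 2 had 30.0 FPKM of Erbb3, against 16.1 to 19.6 FPKM in the other embryonic samples. Among the adult samples, 12wk replicate 2 had 0.0293 FPKM of Areg, which is a single read against 0 reads in the other adult samples. The criterion flags any such group, so this flag carries no weight. In the adult group 4wk replicate 1, the sample with the fewest reads, had 0.457 FPKM of Ereg from 11 reads, against 0.0111 to 0.0608 FPKM in the other adult samples.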

How the results depend on the processing

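No call changed direction under any alternative run. Median-of-ratios scaling, with 1 or with 0.1 FPKM added, lowered the members called lower from 4 to 2 from neonatal to adult and from 2 to 1 from embryo to adult. This scaling removes, by construction, most of the fall of the median gene. With 0.1 FPKM added, the 4 became 5 from neonatal to adult (Tgfa) and, with no filter as well, 6 (Areg). From E14.5 to E16.5 the members called higher went from 0 to 1 with 0.1 FPKM added, alone or on scaled values, and to 2 with no filter as well, and lay between 0 and 1 when each replicate was left out (1 without E14.5 replicate 3). With no filter and 0.1 FPKM added, 1 member was called higher from embryo to adult (Erbb4) and 1 lower from 4wk to 12wk (Ereg), and scaling with 0.1 FPKM added called 1 higher from 4wk to 12wk (Nrg1). The settings with 2 changes were chosen after seeing the data, and the cause of these changes was not tested. Equal replicate numbers did not pair samples (mean correlation of deviations -0.0158 over 30 pairs of samples, 0.0118 over 40 pairs with unequal numbers). With the replicate block, 1 member was called higher from E14.5 to E16.5 (Btc), and the other counts of members did not change. Leaving out any other single replicate changed no count of members by over 1.5 times. The depth of the 4wk samples limits Areg, Ereg, Erbb4 and Nrg1 there.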
